A study of Mus musculus with 50 samples.

Results

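The 7 genes described here handle iron in the cell: Tfrc, Steap3 and Slc11a2 serve its uptake, Fth1 and Ftl1 its storage, and Ireb2 and Aco1 encode the proteins that sense it. They are 7 of the 19455 genes in the deposited expression table. Their rows were found by RefSeq identifier. Rows of a gene with identical values were counted once and distinct rows were summed. Tfrc, Fth1, Ftl1, Ireb2, Aco1 and Slc11a2 were named for their known roles, with results of these data in view. Steap3 was chosen by its measured level, because it was among the largest increases in the triple knockout. The contrast of the triple knockout with wild type at 0 h is therefore given for all 7 genes as a description, without a test, and so is every comparison of Steap3 that uses a Triple_KO library.

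The cells were KH2 mouse embryonic stem cells on a C57BL/6 x 129/Sv background, kept in serum with LIF and plated on gelatin 48 h before the assay. Transcription was then stopped with 5 µM actinomycin D, and RNA was taken at 0, 4 and 8 h. The 5 genotypes were wild type (WT), the single knockouts Ythdf1_KO, Ythdf2_KO and Ythdf3_KO, each labelled as lacking both alleles of the named gene, and Triple_KO, labelled Ythdf1-/-Ythdf2-/-Ythdf3-/-. Each genotype and time had replicates A and B, with 2 duplicate libraries of each replicate at 0 and 8 h and 1 at 4 h, for 50 libraries of 3′ poly(A) RNA-seq. The labels do not say whether A and B were separate cultures or how many clones stand for a genotype, so the p-values measure only how far these samples vary, which may be technical. Reads at the 3′ end need not cover an edited site and do not check the knockouts. No spike-in is named, so every level is relative to its library: a fall in FPM (fragments per 1000000 reads of the library) over time is a fall against the rest of the library.

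Transferrin receptor, the product of Tfrc, carries iron-loaded transferrin into endosomes, where Steap3 reduces the iron and the transporter encoded by Slc11a2 moves it into the cytosol. Ferritin, built of heavy (Fth1) and light (Ftl1) chains, stores what is not used. When iron is scarce, the iron regulatory proteins encoded by Aco1 and Ireb2 bind hairpins called iron-responsive elements: in the 3′ UTR of Tfrc mRNA they protect it from decay, and in the 5′ UTR of ferritin mRNAs they block translation. The Ythdf proteins bind mRNA that carries N6-methyladenosine and are linked with its decay. The libraries measured mRNA, and neither translation nor iron.

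Matches to the iron-responsive element are shown first, because such hairpins are what the iron regulatory proteins bind. Binding was not measured here. GENCODE transcripts of the mouse build GRCm38 (mm10) were searched on the sense strand for a C, 5 bases, CAGTG and 1 further base, with at least 4 of 5 base pairs possible in the upper stem, a G with a U counted as a pair. In each 30-base site the capitals mark the bulged C and the loop.
Fth1, 5′ UTR, exon 1, chr19:9982732-9982761, plus strand: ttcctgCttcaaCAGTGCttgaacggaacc
Ftl1, 5′ UTR, exon 1, chr7:45459778-45459807, minus strand: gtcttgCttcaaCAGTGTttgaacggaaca
Tfrc, 3′ UTR, exon 19, chr16:32631219-32631248, plus strand: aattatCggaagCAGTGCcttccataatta
Tfrc, 3′ UTR, exon 19, chr16:32631598-32631627, plus strand: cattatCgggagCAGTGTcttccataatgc
Tfrc, 3′ UTR, exon 19, chr16:32631663-32631692, plus strand: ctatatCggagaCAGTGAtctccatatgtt
Tfrc, 3′ UTR, exon 19, chr16:32631710-32631739, plus strand: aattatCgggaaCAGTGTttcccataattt
Slc11a2, 3′ UTR, exon 16, chr15:100395152-100395181, minus strand: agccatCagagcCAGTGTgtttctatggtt
Tfrc held 4 matches, all in exon 19, and Fth1, Ftl1 and Slc11a2 held 1 each. The search found no match in the UTRs of Ireb2, Aco1 or Steap3. Such a match is a description of letters: 759 of 17153 genes (4.42%) held at least 1 in a UTR, and 3 genes held 3 or more.

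GGACT is a common core of the methylated motif, and ATTTA is the core of AU-rich decay elements. Both were searched on the sense strand, in the longest transcript of each gene that matched its RefSeq rows. Fth1 held neither word in the 1494 bases of that transcript, in which the element printed above for exon 1 lies in exon 2. Over all genes, 89.73% held GGACT and 75.33% held ATTTA. Ftl1 held 1 GGACT and no ATTTA in 968 bases. Tfrc held 9 ATTTA in 4890 bases, a density of 1.84 per kb that was above that of 85.1% of genes. Its 6 GGACT gave 1.23 per kb, and the 6 of Steap3 gave 1.16 per kb, against a median of 1.05 per kb over all genes.

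Library totals ran from 796921 to 2341410 reads with a median of 1364119, and the listed genes held 29.5 to 45.5% of each. The stem cell label was checked on 8 markers: Pou5f1 lay between 685 and 1091 FPM in the 50 libraries, and Nanog was low, with a median of 1.67 FPM and 0 reads in 6 libraries. Of the erythroid markers, Hba-a1 was at 0 in 44 libraries and Alas2 in 46, whereas Klf1 was at 0 in 25 and reached 3.82 FPM. Of 6 macrophage markers 3 were listed. Csf1r was at 0 in 42 libraries and Lyz2 in 43, whereas Spi1 was at 0 in 16 and reached 5.02 FPM. The 5 endoderm markers listed summed to 2.77 to 7.02 FPM in Triple_KO and 3.38 to 10.5 FPM in WT at 0 h. The summed level of 6 trophectoderm markers was 62.6 to 80.3 FPM in Triple_KO at 0 h against 16.1 to 29.0 in WT, and that of 8 fibroblast feeder markers was 205 to 253 against 116 to 126. Both sums were weighted to few genes. Over the 50 libraries Tfap2c reached 49.7 FPM, Gata3 17.3 and Krt7 16.3, against 7.65 for Eomes and 5.94 for Cdx2. Elf5 was at 0 in 49 libraries. Among the feeder markers Acta2 had a median of 101 FPM, and Twist1 and Col3a1 had medians of 0.948 and 0.801. The summed stem cell markers were 2301 to 2385 FPM in Triple_KO at 0 h and 2665 to 2791 in WT. In these bulk samples, fewer cells of a type and less RNA per cell cannot be told apart, and the part of such cells in the Triple_KO values below was not tested.

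Among the 7 genes the storage gene Fth1 was the one most often called in a knockout. It was lower in Ythdf2_KO and in Ythdf3_KO at all 3 times. Calls rest on limma over all genes tested, with Benjamini-Hochberg adjustment at 0.05 (8697 genes at 0 h, 8002 at 4 h, 7033 at 8 h and 9078 over time). At 0 h, 1 of 7 genes differed from WT in Ythdf2_KO, where 8.2% of all genes tested did. In Ythdf3_KO it was 2 of 7, where 4.46% of all genes did. None of the 7 passed limma's test in Ythdf1_KO, where 2.62% of all genes did. 3 of them had an unadjusted p under 0.05 there, and edgeR called none. In Triple_KO at 0 h 21.9% of all genes passed the test, against which the 7 genes are described only.

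At 4 h, 1 of 7 genes differed in Ythdf2_KO (2.59% of all genes), 1 in Ythdf3_KO (1.6%) and, with Steap3 described only, 1 of 6 in Triple_KO (18.4%). None passed limma's test in Ythdf1_KO at 4 h (0.55% of all genes), with 1 at an unadjusted p under 0.05 and none by edgeR. At 8 h, 2 of 7 differed in Ythdf2_KO (6.77% of all genes), 2 in Ythdf3_KO (2.7%) and 2 of 6 in Triple_KO (35.2%, so that 2 of 6 is close to the share over all genes). In Ythdf1_KO at 8 h none passed limma's test (1.83% of all genes), 2 had an unadjusted p under 0.05 and edgeR called none. The 4 knockouts were compared with the same WT libraries, so their calls are not independent of each other. Every count out of 7, here and over time, includes Steap3, which passed the filter only through Triple_KO. With library totals Steap3 added no call to these counts, and its tests there decide nothing.

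**Figure D1:**
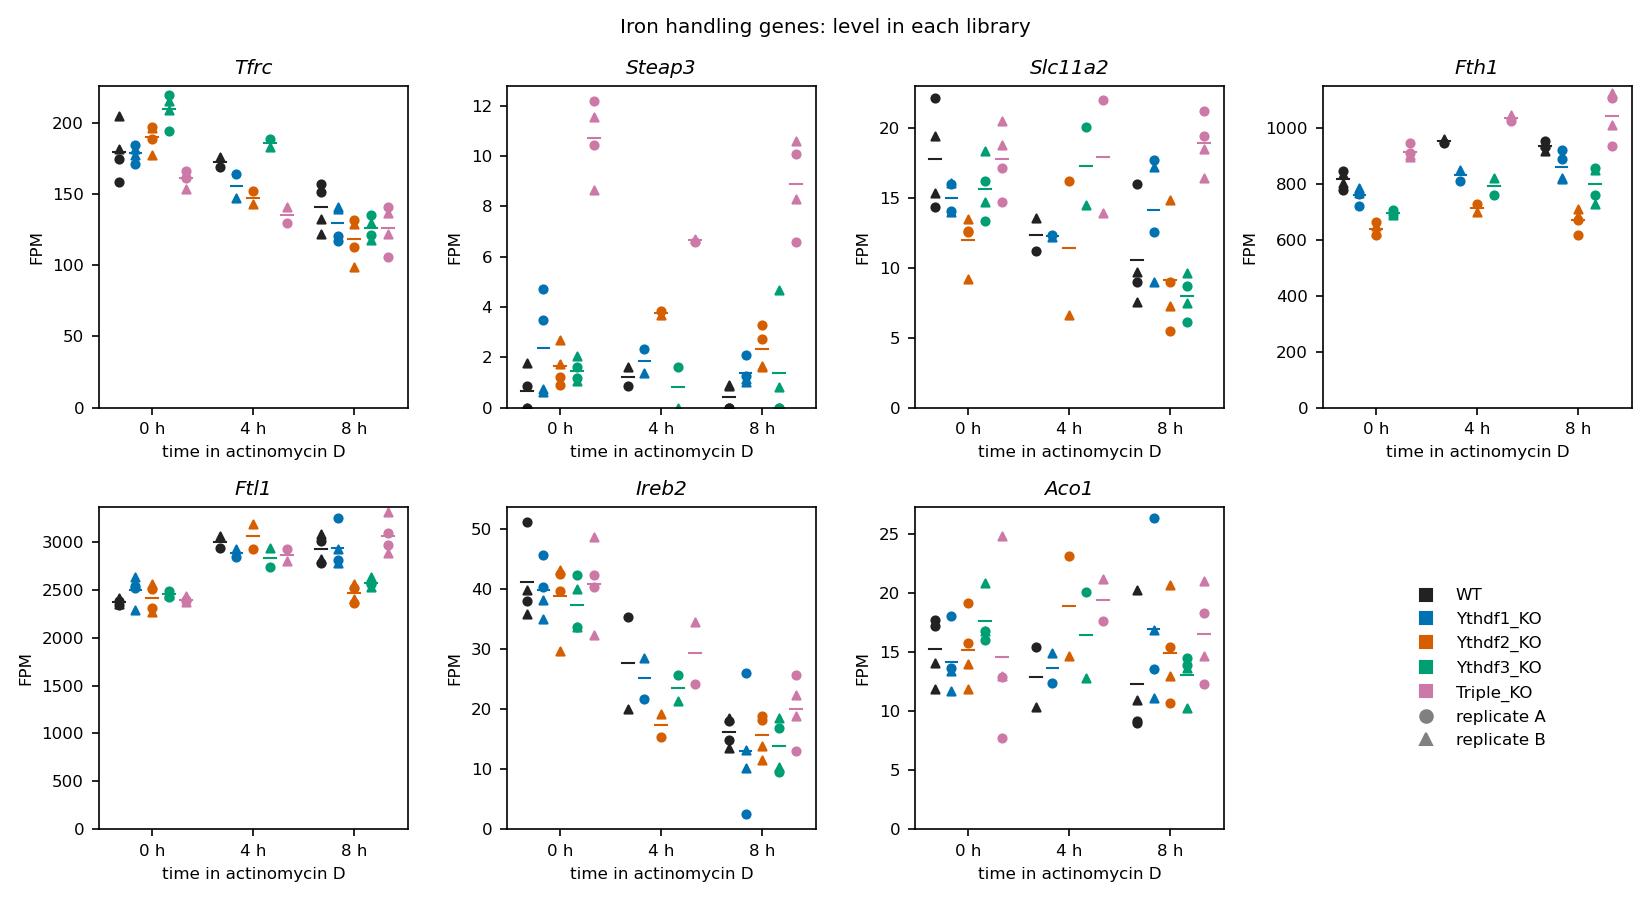
Level of the 7 iron handling genes in FPM (fragments per 1000000 reads of the library; y axes start at 0) in each of the 50 libraries, by time in actinomycin D and genotype; circles are replicate A, triangles replicate B and short lines the means. Steap3 in Triple_KO lies between 6.59 and 12.2 FPM and above every other genotype's libraries, and Fth1 in Ythdf2_KO lies below every WT library at each time.

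Tfrc, the transferrin receptor, differed from WT at 0 h in Ythdf3_KO, by a margin that rested on single replicates. Its level was 175, 159, 182 and 205 FPM in the 4 WT libraries and 185, 171, 177 and 182 FPM in Ythdf1_KO. Ythdf2_KO had 189, 198, 197 and 178 FPM, and Ythdf3_KO had 220, 194, 209 and 216 FPM. Triple_KO had 161, 166, 165 and 154 FPM. The Ythdf3_KO libraries were mostly the highest and the Triple_KO libraries mostly the lowest, but both overlapped WT. In Ythdf3_KO Tfrc was higher than in WT by 0.22 ± 0.071 (log2, SE; limma adjusted p = 0.04179), a call that was lost without WT replicate A (0.12, limma adjusted p = 0.5626), without either Ythdf3_KO replicate, without the filter, with 1 duplicate per replicate and in the fit on all times. In Triple_KO at 0 h the log2 difference was -0.15 ± 0.071.

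At 4 h Tfrc was at 170 and 176 FPM in WT and at 130 and 141 FPM in Triple_KO, with no overlap of the 2 libraries on each side. It was lower in Triple_KO by a log2 difference of -0.35 ± 0.119 (limma adjusted p = 0.02638), and this call was lost when any 1 of the 4 replicates was left out, with limma adjusted p from 0.06438 to 0.2435. TMM and median scaling made the 4 h difference larger, at -0.63 and -0.71. By 8 h the WT libraries, at 152, 158, 132 and 122 FPM, overlapped Triple_KO at 106, 141, 122 and 137 FPM, and with library totals no knockout passed the test against WT (limma adjusted p from 0.1386 to 0.6728). In Triple_KO the 8 h difference of -0.16 became -0.55 with TMM scaling (limma adjusted p = 3.097e-05) and -0.67 with median scaling (limma adjusted p = 3.17e-07), so whether Tfrc was lower there at 8 h depends on the scaling.

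Steap3, the endosomal ferrireductase, was close to undetected outside Triple_KO. The 4 WT libraries at 0 h had 0, 0.845, 1.77 and 0 FPM, which are 4 reads in all. Triple_KO had 10.4, 12.2, 8.64 and 11.6 FPM, from 79 reads. These are the libraries that chose the gene, and their ratio in reads was 15.9, with a 95% interval of 5.98 to 59.8 that covers counting error only. On the log2 scale the difference was 2.95 ± 0.463. Steap3 passed the filter on low values, 5 FPM in 2 replicate means, only through the 2 Triple_KO means at each time, so its difference from WT in Triple_KO is given without a test at all 3 times.

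At 8 h WT had 0, 0, 0.844 and 0.880 FPM, or 2 reads, and Triple_KO had 6.59, 10.1, 8.29 and 10.6 FPM, or 54 reads. Every Triple_KO library lay above every WT library. The log2 difference was 2.84, and the ratio in reads was 18.8 (95% interval 4.96 to 159, for counting error only). At 4 h WT had 0.860 and 1.60 FPM, 3 reads, and Triple_KO 6.60 and 6.69 FPM, 21 reads. The log2 difference was 1.80 and the ratio in reads 5.36 (95% interval 1.60 to 28.1).

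The single knockouts did not reach the Triple_KO level of Steap3 at any time. At 0 h the summed reads were 18 in Ythdf1_KO, 13 in Ythdf2_KO and 11 in Ythdf3_KO. In Ythdf1_KO at 0 h the ratio in reads to WT was 3.97 (95% interval 1.31 to 16.1, for counting error only). Its reads came unevenly, with 4.70 and 3.48 FPM in replicate A and 0.730 and 0.637 FPM in replicate B. In Ythdf2_KO at 8 h all 4 libraries, at 3.28, 2.73, 1.66 and 1.62 FPM, lay above WT, and the ratio in reads was 4.85 (95% interval 1.06 to 45.0). Ythdf1_KO at 8 h (ratio 2.89, 0.473 to 30.3) and Ythdf2_KO at 4 h (3.03, 0.781 to 17.1) also lay above every WT library. In every other single knockout comparison the libraries overlapped WT. None of the 9 single knockout comparisons of Steap3 passed the test (limma adjusted p from 0.2 to 0.9328). These tests cannot decide whether a single knockout differed from WT. Steap3 entered them only through the Triple_KO means, and the WT libraries at 0 h were part of the contrast that chose it. The WT level is 2 to 4 reads per time, so a smaller difference in a single knockout was not detectable at this depth. Both feeder and trophectoderm marker sums were also higher in Triple_KO, as given above, and their part in the Steap3 level was not tested.

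Slc11a2, the divalent metal transporter, has 2 rows in the table. NM_001146161, whose 3′ UTR holds the iron-responsive element printed above, had 16.5 ± 3.46 FPM in WT at 0 h (SD, n = 4 libraries). NM_008732, which held no match, had 1.35 ± 0.523 FPM. The first row therefore carried most of the summed level in every genotype. Its mean in WT was 16.5 FPM at 0 h and 9.03 FPM at 8 h, from 100 and 37 reads. In Triple_KO the mean of that row was 15.6 FPM at 0 h and 16.6 FPM at 8 h, from 116 and 99 reads. NM_008732 had at most 17 reads in any group.

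The summed Slc11a2 level at 8 h was 16.0, 9.03, 7.59 and 9.68 FPM in WT and 21.2, 19.5, 18.5 and 16.5 FPM in Triple_KO. All Triple_KO libraries lay above all WT libraries, the nearest pair being 16.5 and 16.0 FPM. Slc11a2 was higher in Triple_KO by 0.83 ± 0.310 (limma adjusted p = 0.03053). The call was lost under TMM scaling (0.47, limma adjusted p = 0.3391), under median scaling (0.31, limma adjusted p = 0.5183), without the filter, with 1 duplicate per replicate, and without WT replicate B or either Triple_KO replicate (0.60 to 0.93, limma adjusted p from 0.0905 to 0.2229). At 0 h WT had 22.2, 14.4, 19.4 and 15.4 FPM and Triple_KO 14.7, 17.2, 20.5 and 18.8 FPM, which overlap throughout. In Ythdf2_KO at 0 h the libraries, at 12.6, 12.6, 9.19 and 13.5 FPM, were all below WT, but the difference of -0.53 ± 0.220 missed the threshold (limma adjusted p = 0.1325).

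Fth1, the ferritin heavy chain that oxidises iron for storage, was lower in Ythdf2_KO and Ythdf3_KO. At 0 h it was at 849, 779, 837 and 804 FPM in WT and at 619, 663, 627 and 649 FPM in Ythdf2_KO. Ythdf3_KO had 692, 708, 698 and 689 FPM, and Ythdf1_KO 764, 721, 787 and 768 FPM. Every Ythdf2_KO and Ythdf3_KO library lay below every WT library, with Ythdf2_KO the lower of the pair, while Ythdf1_KO overlapped WT at 787 against 779 FPM. Fth1 was 0.78 of the WT mean in Ythdf2_KO, a log2 difference of -0.35 ± 0.039 (limma adjusted p = 4.223e-15). In Ythdf3_KO it was 0.85 of the WT mean, or -0.23 ± 0.039 (limma adjusted p = 2.028e-06). The Ythdf1_KO difference of -0.10 ± 0.039 missed the threshold (limma adjusted p = 0.138). Later Ythdf1_KO differences passed under TMM scaling, at -0.21 at 4 h and -0.19 at 8 h (limma adjusted p = 0.04248 and 0.006199). The summed level of the 8 fibroblast feeder markers was lower in the same knockouts, without overlap with WT: at 0 h it was 93.7 to 102 FPM in Ythdf2_KO and 103 to 110 in Ythdf3_KO against 116 to 126 in WT. At 4 h it was 126 to 127 and 122 to 125 against 159 to 182, and at 8 h 123 to 148 and 177 to 208 against 223 to 243. Acta2 weighed most in this sum, with a median of 101 FPM over the 50 libraries against 23.7 for Col1a1, the next highest. A lower sum therefore does not show that all 8 markers were lower. The part of these markers in the Fth1 differences was not tested. In Ythdf1_KO, by contrast, the feeder sum was above WT at 0 h, at 136 to 161 FPM.

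The difference in Ythdf2_KO held after transcription was stopped. At 4 h Fth1 was at 947 and 960 FPM in WT, 729 and 699 in Ythdf2_KO and 762 and 823 in Ythdf3_KO. At 8 h it was at 933, 953, 919 and 943 FPM in WT and at 617, 671, 686 and 712 FPM in Ythdf2_KO. Ythdf3_KO had 858, 763, 849 and 728 FPM at 8 h. Neither knockout overlapped WT at either time. The log2 differences in Ythdf2_KO were -0.42 ± 0.060 at 4 h (limma adjusted p = 1.162e-07) and -0.48 ± 0.049 at 8 h (limma adjusted p = 8.223e-12). At each of the 3 times all 13 alternatives run kept this call, with values from -0.54 to -0.29 over the 3 times.

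In Ythdf3_KO the later Fth1 differences, -0.27 ± 0.060 at 4 h (limma adjusted p = 0.003972) and -0.23 ± 0.049 at 8 h (limma adjusted p = 0.001782), depended more on the processing. At 4 h the call was lost without WT replicate B (limma adjusted p = 0.06665) or Ythdf3_KO replicate A (limma adjusted p = 0.1342), without the filter (limma adjusted p = 0.0843) and under median scaling (-0.19, limma adjusted p = 0.05192). At 8 h it was lost without WT replicate A (limma adjusted p = 0.06575) or Ythdf3_KO replicate B (limma adjusted p = 0.05863), under TMM scaling (-0.13, limma adjusted p = 0.1993) and median scaling (-0.14, limma adjusted p = 0.1256), without the filter and with 1 duplicate per replicate. Fth1 has processed pseudogenes in the mouse genome, so how the deposited counting divided its reads is uncertain.

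In Triple_KO Fth1 went the other way. Its libraries at 0 h, at 948, 911, 896 and 903 FPM, were all above the WT libraries, with a log2 difference of 0.16 ± 0.039 given as a description. At 4 h it was at 1027 and 1048 FPM, a difference from WT of 0.12 ± 0.060 that missed the threshold (limma adjusted p = 0.1471). At 8 h it was at 1108, 937, 1126 and 1013 FPM and overlapped WT, and the difference of 0.15 ± 0.049 (limma adjusted p = 0.01056) turned to -0.24 under TMM scaling and -0.36 under median scaling. The call with library totals was also lost without the filter and without WT replicate A, WT replicate B or Triple_KO replicate B (limma adjusted p from 0.05064 to 0.1655). In that comparison the median of all genes tested was 0.44 with library totals, 0.07 with TMM and -0.07 with median scaling, so the direction at 8 h depends on what the libraries are scaled to.

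Ftl1, the ferritin light chain, passed the test in no single knockout at 0 h with library totals (log2 differences of 0.02 to 0.07). With TMM scaling it was higher than in WT in all 3, by 0.08 in Ythdf1_KO, 0.08 in Ythdf2_KO and 0.09 in Ythdf3_KO (limma adjusted p = 0.02654, 0.01422 and 0.0111), and with median scaling in Ythdf3_KO (limma adjusted p = 0.03277). At 0 h the libraries held 2388, 2339, 2421 and 2349 FPM in WT and 2308, 2509, 2274 and 2565 FPM in Ythdf2_KO. Ythdf3_KO, at 2432, 2488, 2445 and 2474 FPM, lay just above WT, by 0.05 ± 0.024, which missed the threshold (limma adjusted p = 0.2687). Triple_KO at 2394, 2390, 2379 and 2437 FPM differed from WT by 0.02 ± 0.024, which turned to -0.042 with TMM and -0.075 with median scaling. In Ythdf2_KO at 0 h the log2 difference of Ftl1 was 0.02 ± 0.024 (limma adjusted p = 0.6844), beside -0.35 for Fth1.

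At 8 h Ftl1 did differ with library totals. WT had 2781, 3011, 2825 and 3086 FPM, Ythdf2_KO 2366, 2520, 2566 and 2410 FPM, and Ythdf3_KO 2568, 2571, 2534 and 2637 FPM. All libraries of both knockouts lay below WT. Ftl1 was lower by a log2 difference of -0.25 ± 0.031 in Ythdf2_KO (limma adjusted p = 7.67e-09) and of -0.18 ± 0.031 in Ythdf3_KO (limma adjusted p = 4.948e-05). Both calls were lost under TMM scaling, at -0.06 (limma adjusted p = 0.2444) and -0.08 (limma adjusted p = 0.1821). They were also lost under median scaling, at -0.07 (limma adjusted p = 0.1411) and -0.09 (limma adjusted p = 0.09449). With 1 duplicate per replicate the Ythdf3_KO call was lost too (limma adjusted p = 0.116). With library totals the median of all genes tested was itself -0.15 in Ythdf2_KO and -0.08 in Ythdf3_KO. In Triple_KO at 8 h Ftl1 was at 3102, 2968, 3312 and 2893 FPM and overlapped WT, with a difference of 0.07 ± 0.031 (limma adjusted p = 0.07418) that turned to -0.33 under TMM scaling and -0.45 under median scaling.

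**Figure D2:**
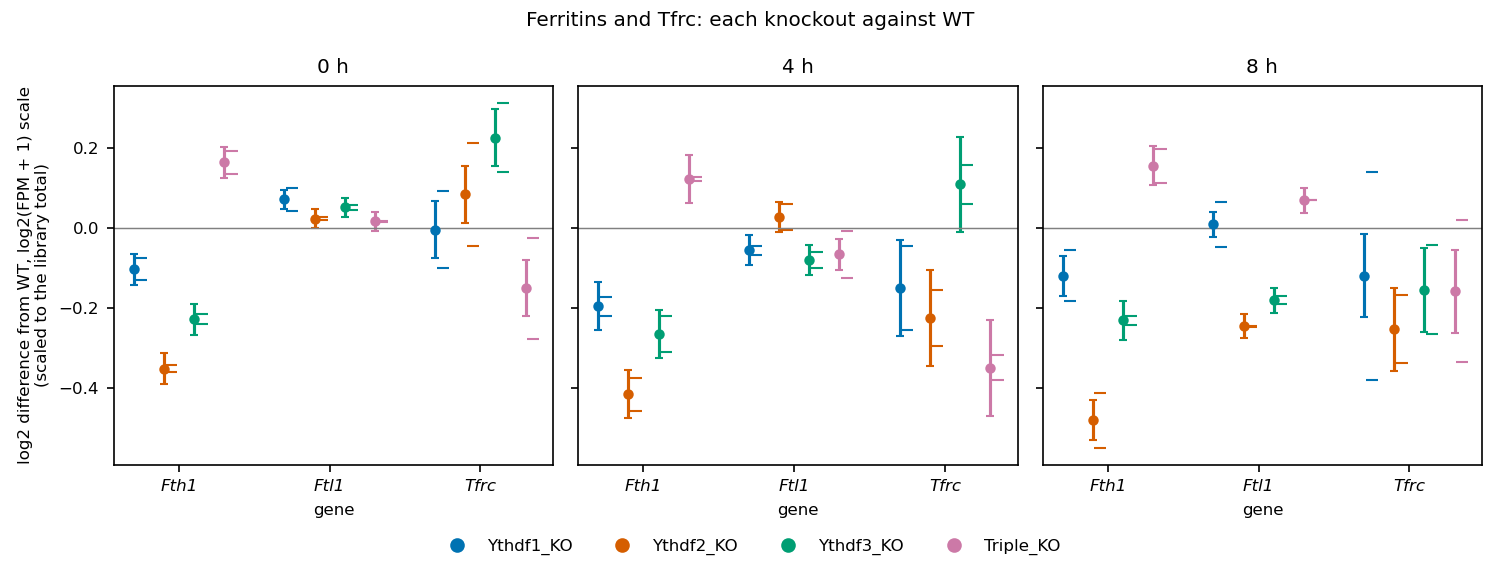
Log2 difference from WT of Fth1, Ftl1 and Tfrc in each knockout at 0, 4 and 8 h, on the log2(FPM + 1) scale with libraries scaled to their totals; points with bars are the estimate ± SE, and short dashes are replicates A and B. Fth1 in Ythdf2_KO goes from -0.35 at 0 h to -0.48 at 8 h, and the positive Triple_KO values of Fth1 at 4 h and 8 h and of Ftl1 at 0 h and 8 h turn negative under TMM and median scaling.

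A ratio of 2 genes within a library needs no scaling, and was added after the values were seen, as a description. It compares libraries, and not the number of molecules of the 2 genes. Fth1 over Ftl1 at 0 h was 0.333 to 0.355 in the 4 WT libraries. It was 0.253 to 0.276 in Ythdf2_KO, 0.278 to 0.286 in Ythdf3_KO and 0.371 to 0.396 in Triple_KO, so these 3 genotypes did not overlap WT and lay on both sides of it. Ythdf1_KO, at 0.284 to 0.344, overlapped WT. By 8 h WT had 0.306 to 0.335 and Ythdf2_KO 0.261 to 0.296, still apart, whereas Ythdf3_KO at 0.276 to 0.335 and Triple_KO at 0.316 to 0.357 overlapped WT.

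The ratio of the uptake receptor to the storage chain has Fth1 as its denominator, where the first ratio has it on top, so the pair of ratios share the Fth1 difference. Tfrc over Fth1 at 0 h was 0.204 to 0.255 in WT, 0.274 to 0.313 in Ythdf2_KO and 0.275 to 0.318 in Ythdf3_KO. It was 0.170 to 0.184 in Triple_KO, below all WT libraries, and 0.226 to 0.241 in Ythdf1_KO. At later times the mean ratio was lower in each genotype, in WT at 0.179 to 0.184 at 4 h and 0.130 to 0.165 at 8 h, and in Triple_KO at 0.127 to 0.135 at 4 h and 0.0958 to 0.150 at 8 h. At 8 h all 4 knockouts overlapped WT.

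**Figure D3:**
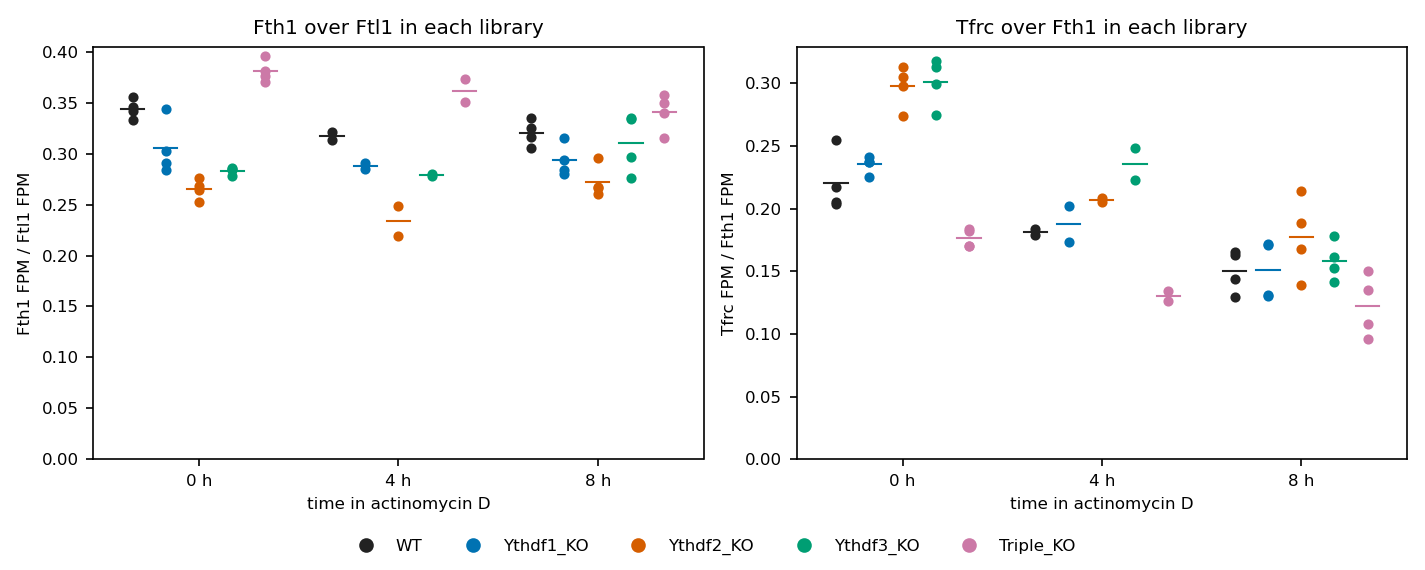
Ratio of Fth1 to Ftl1 (left) and of Tfrc to Fth1 (right) in each library, by time in actinomycin D; points are libraries, lines are means, and both axes start at 0. At 0 h the Fth1 to Ftl1 ratio of Ythdf2_KO (0.253 to 0.276) and Ythdf3_KO (0.278 to 0.286) lies below WT (0.333 to 0.355) and that of Triple_KO (0.371 to 0.396) above it.

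Ireb2 encodes iron regulatory protein 2, which is removed by degradation when iron is plentiful. None of its tested differences between a knockout and WT passed at any time (limma adjusted p from 0.2823 to 0.9629 outside the Triple_KO contrast at 0 h). At 0 h it was at 51.2, 38.0, 35.9 and 39.8 FPM in WT, and the group means ran from 37.4 to 41.2 FPM. Ythdf2_KO at 4 h, with 15.4 and 19.1 FPM, lay below WT at 35.3 and 19.9 FPM, on 46 against 66 reads, but that difference of -0.60 ± 0.286 missed the threshold (limma adjusted p = 0.314). In Ythdf1_KO at 8 h the libraries were spread from 2.51 to 26.1 FPM, both of these in replicate A.

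Aco1 encodes cytosolic aconitase, which becomes iron regulatory protein 1 when it loses its iron-sulfur cluster. It was at 17.3, 17.7, 14.1 and 11.9 FPM in WT at 0 h, and the means of the 15 groups ran from 12.3 to 19.4 FPM. In the 11 comparisons of a knockout with WT that were tested it did not pass the threshold (limma adjusted p from 0.2206 to 0.993), and no genotype showed a change over 8 h that passed the test (limma adjusted p from 0.2394 to 0.9067) with library totals. With TMM scaling the Aco1 change passed in Ythdf1_KO (0.75, limma adjusted p = 0.04793), and with median scaling in Ythdf1_KO (1.18), Ythdf2_KO (1.14) and Triple_KO (0.85), all upward. In Triple_KO at 0 h the libraries ranged from 7.75 to 24.8 FPM. With 31 to 132 reads per group, a small difference in Aco1 was not detectable.

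Over 8 h of actinomycin D both ferritin mRNAs of WT cells rose relative to the library total, while Tfrc, Slc11a2 and Ireb2 fell. The changes of Aco1 (-0.34) and Steap3 (-0.14) missed the threshold (limma adjusted p = 0.3366 and 0.8428). The Steap3 test cannot decide a change in WT, because the gene passed the filter only through Triple_KO and had few WT reads. In WT, 5 of 7 changed where 56.9% of all genes did (1.73% higher and 55.2% lower), with a median of -0.81 over all genes tested. It was 4 of 7 in Ythdf1_KO (55.9% of all genes), 2 of 7 in Ythdf2_KO (63.2%), 4 of 7 in Ythdf3_KO (60.2%) and, with Steap3 described only, 4 of 6 in Triple_KO (29.2%, median -0.39). All these changes are relative to the library total: under TMM scaling the WT median of all genes moved from -0.81 to -0.19, and under median scaling to 0.24, and the split of WT calls went from 157 higher and 5007 lower to 1402 higher and 2234 lower with TMM.

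Fth1 went from 849, 779, 837 and 804 FPM at 0 h to 933, 953, 919 and 943 FPM at 8 h in WT, without overlap. It rose by 0.20 ± 0.049 (log2; limma adjusted p = 0.0004928). It also rose in Ythdf1_KO (0.18), Ythdf3_KO (0.20) and Triple_KO (0.19), and was 0.07 ± 0.049 higher in Ythdf2_KO, which missed the threshold (limma adjusted p = 0.2049). The Triple_KO call was lost without Triple_KO replicate B (0.13, limma adjusted p = 0.2566) and the Ythdf1_KO call without Ythdf1_KO replicate A (0.08, limma adjusted p = 0.3522), and under TMM scaling the Ythdf2_KO change passed too (0.88). The difference of the 8 h change between Ythdf2_KO and WT was itself not past the threshold, at -0.13 with an interval of ± 1.96 SE from -0.26 to 0.01.

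Ftl1 rose in WT by 0.30 ± 0.033 (limma adjusted p = 9.483e-12), in Ythdf1_KO by 0.24 ± 0.033 and in Triple_KO by 0.35 ± 0.033 (limma adjusted p = 1.278e-13). In Ythdf2_KO it was 2308, 2509, 2274 and 2565 FPM at 0 h and 2366, 2520, 2566 and 2410 FPM at 8 h, which overlap. The changes there, 0.03 ± 0.033, and in Ythdf3_KO, 0.07 ± 0.033, missed the threshold (limma adjusted p = 0.3979 and 0.07009) with library totals and passed it with TMM scaling (0.84 and 0.82). At 4 h the means stood at 3004 FPM in WT, 3061 in Ythdf2_KO and 2840 in Ythdf3_KO, so that Ythdf2_KO was as high as WT at 4 h and lower at 8 h.

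Tfrc fell in all 5 genotypes with library totals. WT kept 78.3% of its 0 h mean at 8 h, and Ythdf1_KO kept 72.4%. Ythdf2_KO kept 62.2%, Ythdf3_KO 60.1% and Triple_KO 78.3%. The log2 change was -0.35 ± 0.097 in WT and -0.36 in Triple_KO, against -0.47 in Ythdf1_KO, -0.69 in Ythdf2_KO and -0.73 in Ythdf3_KO, and each passed limma's test (adjusted p from 2.66e-09 to 0.00306). They were smaller than the fall of the median gene, by 0.46 in WT, 0.22 in Ythdf2_KO, 0.10 in Ythdf3_KO and 0.03 in Triple_KO, and the sign of the Tfrc change therefore turned positive under median scaling in all 5 genotypes and under TMM scaling in all but Triple_KO. In WT the fall rested on replicate B (-0.60, against -0.11 in replicate A), and without it the call was lost (limma adjusted p = 0.5359), as was the Triple_KO call without Triple_KO replicate A (limma adjusted p = 0.174).

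Ireb2 fell the most of the 7, by more than the median gene in every genotype. It went from 51.2, 38.0, 35.9 and 39.8 FPM to 14.8, 18.1, 13.5 and 18.5 FPM in WT, without overlap. The WT mean at 8 h was 39.3% of that at 0 h, and the knockouts kept 32.6% (Ythdf1_KO), 40.2% (Ythdf2_KO), 36.8% (Ythdf3_KO) and 48.7% (Triple_KO) of theirs. The log2 change of Ireb2 was -1.29 ± 0.237 in WT (limma adjusted p = 5.134e-06) and from -1.88 to -1.03 in the knockouts, all past the threshold. Beyond the median gene the changes were -1.11 to -0.36, and the direction stayed negative under TMM and median scaling, although under median scaling the test was passed in Ythdf1_KO only and under TMM scaling it was missed in Ythdf2_KO (-0.50, limma adjusted p = 0.09062). Without Triple_KO replicate A the Triple_KO call was lost (limma adjusted p = 0.07018).

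Slc11a2 fell in WT, by 0.73 ± 0.313 on the log2 scale (limma adjusted p = 0.04037), and in Ythdf3_KO, by 0.90 ± 0.313 (limma adjusted p = 0.01124), and both turned positive under median scaling (0.32 and 0.18). Neither passed under TMM scaling (-0.10 and -0.22), and the WT call was also lost without the filter and with 1 duplicate per replicate. In Triple_KO its change was 0.09 ± 0.313. The WT call was lost without either WT replicate (limma adjusted p = 0.08297 and 0.3417) and the Ythdf3_KO call without either Ythdf3_KO replicate (limma adjusted p = 0.1046 and 0.0872). Steap3 in Triple_KO, described without a test, was at 10.7 ± 1.56 FPM at 0 h, 6.65 ± 0.061 at 4 h (n = 2 libraries) and 8.90 ± 1.83 at 8 h.

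**Figure D4:**
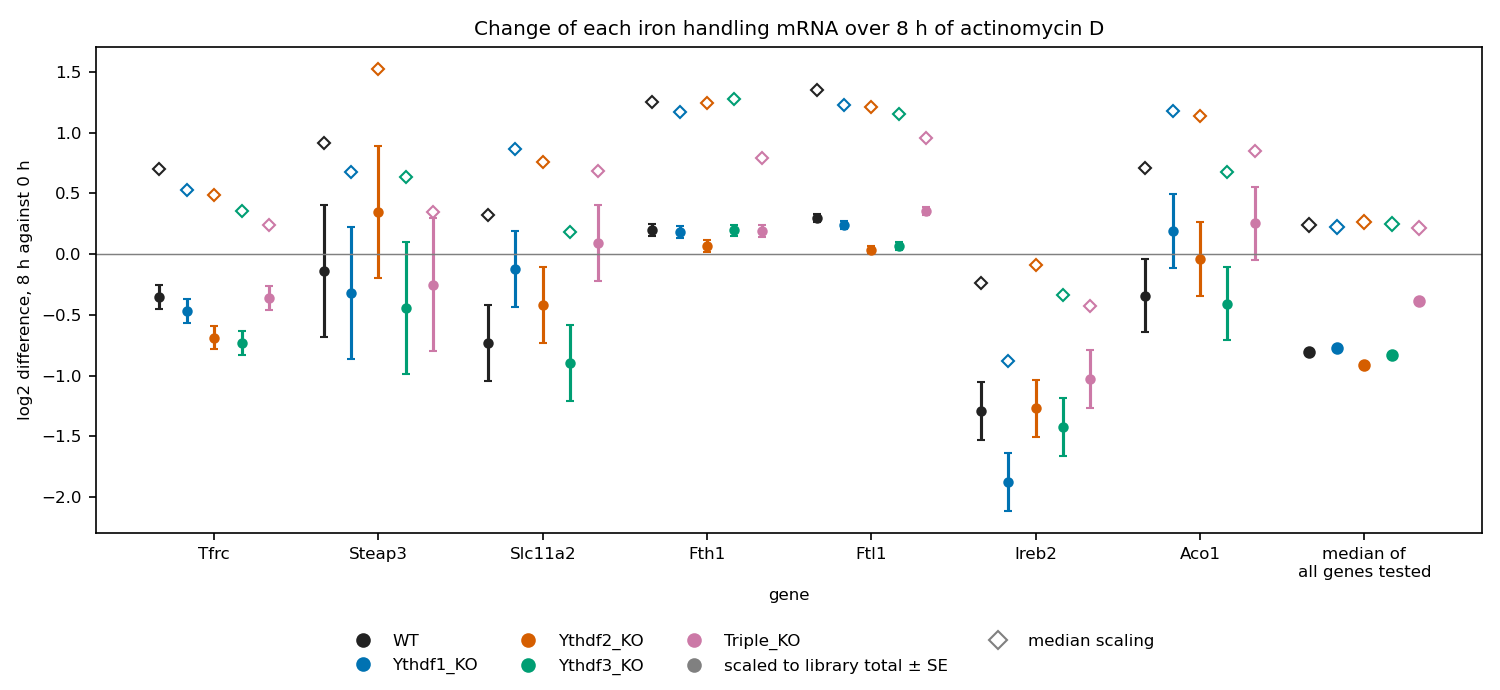
Log2 change from 0 to 8 h of actinomycin D for the 7 genes in the 5 genotypes, with the median of all genes tested at the right; filled points with bars are values scaled to library totals ± SE, open diamonds the same after median scaling. With library totals the ferritin values lie at or above 0.03 and Ireb2 at or below -1.03; median scaling lifts every value and turns those of Tfrc positive in all 5 genotypes.

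Whether the change over 8 h differed from WT was tested with a genotype by time term. Ftl1 was the 1 gene of 7 that passed in Ythdf2_KO, where 0.176% of all genes did, and the 1 of 7 in Ythdf3_KO, where 0.33% did. Its gain over 8 h was smaller than in WT by a log2 difference of -0.27 ± 0.047 in Ythdf2_KO (limma adjusted p = 0.002158) and -0.23 ± 0.047 in Ythdf3_KO (limma adjusted p = 0.003356). Both replicates gave nearly the same value, -0.27 and -0.27 in Ythdf2_KO and -0.23 and -0.24 in Ythdf3_KO. The calls were lost under TMM scaling (-0.14 and -0.16), median scaling, without the filter and with 1 duplicate per replicate, and without WT replicate A, WT replicate B or Ythdf2_KO replicate A (limma adjusted p from 0.05275 to 0.2099) for Ythdf2_KO, and without any 1 of the 4 replicates for Ythdf3_KO (from 0.06456 to 0.1174).

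None of the 7 passed limma's genotype by time test in Ythdf1_KO, where 0.0441% of all genes did. None had an unadjusted p under 0.05 there and edgeR called none. In Triple_KO none of the 6 genes tested passed, against 7.24% of all genes, again with none at an unadjusted p under 0.05 and none by edgeR. Under TMM and median scaling Fth1 (-0.34 and -0.46, limma adjusted p = 0.000891 and 3.654e-05) and Ftl1 (-0.28 and -0.40, limma adjusted p = 6.589e-07 and 2.794e-07) passed in Triple_KO, and with 1 duplicate per replicate Ftl1 passed in the other direction (0.20, limma adjusted p = 0.02074). The Tfrc difference from WT was -0.34 in Ythdf2_KO (interval of ± 1.96 SE from -0.61 to -0.07, limma adjusted p = 0.5876) and -0.38 in Ythdf3_KO (-0.65 to -0.11, limma adjusted p = 0.4059). In Triple_KO it was -0.01, with an interval from -0.28 to 0.26.

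Other genes of iron metabolism were taken from lists of uptake, storage, regulators, further iron-responsive element mRNAs, iron-sulfur cluster assembly and haem. Of 84 listed besides the 7, 63 were tested at 0 h. In Ythdf2_KO 2 were higher and 7 lower, where 3.98% of all genes were higher and 4.22% lower, with a median of -0.04 beside -0.03 over all genes. With TMM scaling 4 of 61 were higher and 6 lower. Epas1, the hypoxia factor whose mRNA carries an iron-responsive element, fell by 0.82 ± 0.192 on the log2 scale (limma adjusted p = 0.001006), and Steap1, a relative of Steap3, fell by 0.96 ± 0.310 (limma adjusted p = 0.03055). Ncoa4, the receptor that delivers ferritin to lysosomes, rose by 0.55 ± 0.147 (limma adjusted p = 0.004913). In Triple_KO 9 of the 63 were higher and 6 lower, close to the 14.3% higher and 7.65% lower over all genes. Steap1 (-1.10 ± 0.310, limma adjusted p = 0.003872) and Epas1 (-0.99 ± 0.192, limma adjusted p = 9.563e-06) were among the lower ones. Among the higher ones were Fdx2, from the iron-sulfur cluster lists (0.87 ± 0.137, limma adjusted p = 3.731e-08), and Blvrb, from the haem list (0.78 ± 0.166, limma adjusted p = 6.659e-05).

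Ythdf1_KO had 4 of 63 higher and none lower at 0 h, where 1.72% of all genes were higher and 0.897% lower. Among the 4 were Hmox1, the inducible haem oxygenase (0.30 ± 0.063, limma adjusted p = 0.0004351), and Tmem14c, which carries a haem precursor into mitochondria (0.43 ± 0.094, limma adjusted p = 0.001078). Ythdf3_KO had 1 of 63 lower (1.99% of all genes), Epas1 (-0.61 ± 0.192, limma adjusted p = 0.03991), a call lost under median scaling (limma adjusted p = 0.05187). At 8 h Hmox1 was higher in Ythdf1_KO by 0.41 ± 0.091 and lower in Ythdf2_KO by a log2 difference of -0.47 ± 0.091 (limma adjusted p = 0.004478 and 0.0002032), and the Ythdf2_KO call was lost under TMM scaling (-0.28, limma adjusted p = 0.05335). Ncoa4 was higher in Ythdf2_KO at 4 h (0.99 ± 0.245, limma adjusted p = 0.008339) and 8 h (0.71 ± 0.204, limma adjusted p = 0.01993) too.

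In Triple_KO at 8 h, 19 of 54 other iron genes were higher and 0 lower with library totals, close to the 33.5% higher and 1.71% lower over all genes, with a median of 0.42 beside 0.44 over all genes. With TMM scaling 7 of 57 were higher and 4 lower. Fdx2, a mitochondrial ferredoxin of iron-sulfur cluster assembly, was at 82.3 FPM in Triple_KO and 17.9 FPM in WT, higher by 2.17 ± 0.217 (limma adjusted p = 3.673e-13) and by 1.79 with TMM. Pcbp1, a chaperone that hands iron to ferritin, was at 307 against 132 FPM, higher by 1.22 ± 0.091 (limma adjusted p = 1.563e-18) and by 0.82 with TMM. Hmox2, the constitutive haem oxygenase, was higher by 1.83 ± 0.371 (limma adjusted p = 5.629e-05) and by 1.48 with TMM.

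Over 8 h, 1 of 63 other iron genes rose and 29 fell in WT, where 1.73% of all genes rose and 55.2% fell. Their median was -0.55 beside -0.81 over all genes, and with TMM scaling 13 of 62 rose and 9 fell. Among the fallers in WT were Fbxl5, the iron-sensing adaptor that marks Ireb2 protein for degradation (fell by 1.63 ± 0.330 on the log2 scale, limma adjusted p = 3.094e-05), and the decay factors Zfp36l1 and Zfp36l2. In Triple_KO 0 rose and 10 fell (3.45% and 25.8% of all genes), with a median of -0.17 beside -0.39. The genotype by time test found 6 of 63 higher in Triple_KO than in WT, where 7.22% of all genes were, led by Fdx2 (1.30 ± 0.285, limma adjusted p = 0.001325) and including Pcbp1 (0.90 ± 0.114, limma adjusted p = 1.612e-08). With TMM scaling 1 of 62 was higher and 1 lower: Pcbp1 passed (0.57, limma adjusted p = 0.0007289) and Fdx2 did not (0.99, limma adjusted p = 0.05171).

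For Steap3 and Tfrc the genes with the most similar pattern over the 15 genotype and time means are given as a description, among 5284 genes with a mean of at least 10 FPM. Steap3 was followed most closely by Ckb (Pearson r = 0.946), Guk1 (0.930), Slc25a4 (0.926), Fabp3 (0.919) and Fscn1 (0.918). Tfrc was followed by Sinhcaf (0.973), Kank3 (0.950), Slc38a1 (0.933), Mis18a (0.933) and Kif22 (0.926). The 15 means share libraries and their scaling, and those of Steap3 rest on few reads outside Triple_KO.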

How the data were processed

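Levels came from 1 deposited table of 22338 transcript rows and 50 columns, in FPM, the reads of a row per 1000000 of the library (an RPM unit), made by the authors. Bowtie2, CASAVA 1.8.2 and mm10, a mouse genome build, are listed per the submitters' processing notes; the counting step, its use of strand and the treatment of reads that map to several places are not given in the sources used here, so overlapping or antisense transcripts and pseudogenes cannot be told apart from a gene. RefSeq rows were mapped to 19455 genes. In all 50 libraries the deposited FPM values of up to 100 reads were whole multiples of the value of 1 read (100% within 0.1 read). Higher values were not checked in this way. Whole reads and totals were recovered for the Poisson intervals and for an edgeR test, which called 1879 genes in Triple_KO against 1906 by limma at 0 h.

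Duplicates were averaged as log2(FPM + 1), giving 30 replicate means. Genes with at least 5 FPM in 2 replicate means were fitted with limma 3.58.1 (R 4.3.3, with a mean-variance trend), levels on the 10 means of a time and changes on all 30, fitted across all genes with Benjamini-Hochberg adjustment at 0.05. Fold changes are on the log2(FPM + 1) scale, which understates those of low genes. The method was tested on simulated data. Steap3 in Triple_KO at 4 and 8 h was planned as a test and is given as a description, since it passed the filter only through Triple_KO. Alternatives were a pseudocount of 0.5, no filter, TMM or median scaling, edgeR 4.0.16, the replicate as a block, 1 replicate left out, 1 duplicate only, levels from the fit on all times and the highest row of a gene alone. No 2 libraries agreed within sampling noise (chi-square per degree of freedom: median 1.44 over 20 duplicate pairs and 1.40 over 40 pairs of replicates A and B). The members, the iron and marker lists and the tests were chosen with earlier results of these data known. The text names all 7 genes and the 5 genes most like Steap3 and Tfrc. Other iron genes were ranked by size of change, up to 4 per comparison. Each of these passed limma's test, moved alike in replicates A and B, and had at least 10 FPM in a group. The text names only some of them, and not always the largest. At 8 h Blvra in Ythdf1_KO (-1.50), Ciao3 in Ythdf2_KO (-0.78) and Hmox1 in Ythdf3_KO (-0.32) were ranked but are not described above. The listed marker sets were stem cell, fibroblast feeder, erythroid, macrophage, endoderm and trophectoderm. Sequences came from GENCODE transcripts of GRCm38.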

Additional observations from a re-analysis of the deposited data

Results flagged for a closer look

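In Ythdf3_KO at 0 h 1 library of replicate B had 20.9 FPM of Aco1, far from the other 3 at 16.0 to 16.8 FPM. Chance sets a library apart in this way in about 1 in 20 groups, and 70 groups were checked. Ftl1 changed less over 8 h than in WT in Ythdf2_KO (-0.27) and in Ythdf3_KO (-0.23), by the genotype by time test with library totals. Both differences kept their sign but not their call under TMM and median scaling.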

How the results depend on the processing

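Of 1772 recomputed values of the 7 genes, 1500 kept their direction and their side of the threshold, 131 that were not called changed sign, 72 lost the call, 29 gained one, 22 reversed and 18 untested values moved by more than their spread. Fth1 in Ythdf2_KO at each of the 3 times kept its call in all 13 alternatives run. All values that reversed did so under another scaling, which moves every gene of a library alike. With TMM and median scaling in turn, Fth1 in Triple_KO became -0.16 and -0.24 at 4 h and -0.24 and -0.36 at 8 h, Ftl1 in Triple_KO -0.33 and -0.45 at 8 h, and the Ftl1 difference of change -0.28 and -0.40. The Tfrc change over 8 h became 0.32 and 0.70 in WT, 0.13 and 0.53 in Ythdf1_KO, 0.12 and 0.49 in Ythdf2_KO, 0.013 and 0.35 in Ythdf3_KO and, with median scaling alone, 0.24 in Triple_KO. With median scaling the Slc11a2 change became 0.32 in WT, 0.87 in Ythdf1_KO, 0.76 in Ythdf2_KO and 0.18 in Ythdf3_KO, and the Aco1 change in Ythdf2_KO 1.14.

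The number of tested genes called changed by over 1.5 times as follows. With TMM scaling it became 1 in Ythdf1_KO and 2 in Ythdf2_KO at 0 h, 1 in Ythdf1_KO and 3 in Triple_KO at 4 h, 1 in Ythdf1_KO, 1 in Ythdf2_KO and 0 in Ythdf3_KO at 8 h, and 0, 0 and 2 for the genotype by time test in Ythdf2_KO, Ythdf3_KO and Triple_KO. With median scaling it became 0 in Ythdf3_KO and 3 in Triple_KO at 4 h, 1, 1 and 0 in Ythdf1_KO, Ythdf2_KO and Ythdf3_KO at 8 h, 3 in WT and 6 in Ythdf2_KO over time, and 0, 0 and 2 for the test of change. The 6 in Ythdf2_KO include Steap3 (1.525), which passed the filter only through Triple_KO, so that call decides nothing. Without a filter the number called became 1 in Ythdf3_KO at 0 h, 0 in Ythdf3_KO and Triple_KO at 4 h, 1 in Ythdf3_KO and 0 in Triple_KO at 8 h, and 0 in both tests of change that had a call. With 1 duplicate it became 1 in Ythdf3_KO at 0 h, 0 in Ythdf3_KO at 8 h, and 0, 0 and 1 in the tests of change in Ythdf2_KO, Ythdf3_KO and Triple_KO. With levels from the fit on all times it became 1 in Ythdf3_KO at 0 h, and 1 in Ythdf1_KO at 4 h. Another 19 counts moved by less, among them Ythdf3_KO at 0 h and Triple_KO at 8 h, which rose from 2 to 3 under both scalings, and WT over time, which went from 5 to 4 with TMM. Except for the scalings and the smaller samples, the cause was not tested.

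Leaving out 1 replicate gave 0 to 1 genes in Ythdf1_KO at 0 h and at 8 h, 1 to 2 in Ythdf3_KO at 0 h and at 8 h, 0 to 1 at 4 h, 0 in Triple_KO at 4 h and 0 to 1 at 8 h. Over time it gave 3 to 4 in WT and 2 to 3 in Triple_KO. In the test of change it gave 0 to 1 in Ythdf2_KO and 0 in Ythdf3_KO. In the fits of a single time Steap3 could not be fitted without a Triple_KO replicate, since it then no longer passed the filter. In the fit over all times it still passed, through the Triple_KO means that remained. Where 1 replicate of a genotype remained, it was assumed to vary like the others.

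Replicate letters did not pair the samples (correlation of deviations from -0.03 to 0.05), and the fit with the replicate block changed no count of the 7 genes (2 of 7 at 8 h in Ythdf2_KO, for instance) and no all-gene count by over 1.5 times. All-gene counts moved by more with other settings: in Ythdf2_KO at 0 h from 713 to 138 with the fit on all times and to 312 without a filter, in Triple_KO at 8 h from 2479 to 1451 with TMM, and in the Triple_KO test of change from 657 to 152 with TMM and to 1292 with edgeR.

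Depth limits Steap3 in WT (2 to 4 reads per time) and Aco1, Ireb2 and Slc11a2 at 4 h (30 to 95 reads per genotype).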
